A study of Mus musculus with 3 samples.

Results

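The histone genes of 3 mouse lung single-cell libraries were taken as every gene whose symbol begins with Hist1h, Hist2h, Hist3h or Hist4h, called replication-linked below, and every gene whose symbol begins with H2af, H3f3 or H1f, called variant. This found 85 of the 27998 genes in the matrices, 69 of them replication-linked and 16 variant, with the symbol Hist2h2bb standing for a pair of gene identifiers. Of the replication-linked genes, 39 had at least 30 unique molecular identifiers (UMIs) over the kept cells and are called measured, 25 had 1 to 29 UMIs and 5 had none (Hist1h1t, Hist1h2aa, Hist1h2ba, Hist1h2bq and Hist1h2br). Of the variant genes, 10 were measured. H3f3aos, a noncoding transcript from the strand opposite H3f3a, had 4 UMIs, and 5 variant genes had none (H2afb1, H2afb2, H2afb3, H1foo and H1fnt). Hist1h1t and H1fnt are known from the testis and H1foo from the oocyte.

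Each group was 1 library of dissociated lung from C57BL/6 females aged 10 to 12 weeks. CONV lung had received 17 Gy to the thorax in conventional mode, FLASH lung 17 Gy to the thorax in FLASH mode (delivery at an ultra-high dose rate), in both cases as 4.5 MeV electrons under isoflurane, and NI lung was the non-irradiated control. How many mice gave each library, and how long after irradiation they were sampled, is not given in the sources used here. Because each group is 1 library, no p-value is given: brackets hold 95% intervals that cover counting error only, and "higher" and "lower" describe these libraries.

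The kept cells numbered 2388 in CONV, 2253 in FLASH and 1705 in NI, with medians of 2350.5, 1794 and 2951 UMIs per cell, and a pair of libraries shared 5 to 7 cell barcodes. A count of 0 in a whole library allowed up to 0.422 CPM (the UMIs of a gene per 1000000 UMIs of the same cells) in CONV, 0.578 in FLASH and 0.438 in NI. Clusters were made without the histone genes and named from markers as "like" a cell type, and 3 of the 26 stayed unnamed. NI stood apart from the irradiated libraries by its thymocyte-like cells, that is, cells like the precursors that normally mature in the thymus: 221 dividing ones, all in NI, with 13 of 13 listed thymocyte markers detected, and 134 resting ones, 133 of them in NI, with 12 of 13 detected. Values are therefore given with and without these clusters, and the compartments named below (epithelial, endothelial, stromal, myeloid, lymphoid) leave them out.

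Histones package DNA: H2A, H2B, H3 and H4 form the core particle, and linker H1 binds the DNA between particles. Replication-linked genes lie mostly in clusters, are transcribed while DNA is copied, and give messages that end at a conserved stem-loop, bound by the protein Slbp, in place of a poly(A) tail. Variant genes lie alone, give polyadenylated messages outside DNA replication too, and supply replacements such as the H3 variant of H3f3a and H3f3b, H2A.Z (H2afz and H2afv), H2A.X (H2afx), macroH2A (H2afy and H2afy2) and linker H1f0. The libraries were primed on poly(A), per the molecule named in the labels, so a UMI of a replication-linked gene is a captured molecule and not a measure of all its RNA. Each UMI stands for 1 captured 3′ end, so levels are not divided by gene length, and capture of tailless ends was not measured.

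The 3′ ends of the genes that moved most between dividing and resting thymocyte-like cells are shown first, because their position in the transcript divides the replication-linked genes below. A 16-base stem-loop was searched on the transcribed strand of GENCODE M21 transcripts, with a window of 400 bases. It was made of the arm GGNNNT, the loop TNTN and the complementary arm ANNNCC. It was found in 42 of the 67 replication-linked genes that have a transcript there, in 1 of 16 variant genes (H2afx) and in 45 of 55450 genes in all (0.0812%). The sequences below run 5′ to 3′ with the stem-loop in capitals, and positions are on mm10.
Hist1h2ap (chr13:21833026-21833507, minus strand): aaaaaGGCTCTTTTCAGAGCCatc
Hist1h2bj (chr13:22043214-22043676, plus strand): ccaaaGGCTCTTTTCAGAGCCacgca
Hist1h2ag (chr13:22042460-22042944, minus strand): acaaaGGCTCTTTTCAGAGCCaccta
Hist1h2bk (chr13:22035870-22036345, plus strand): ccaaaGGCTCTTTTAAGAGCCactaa
Hist3h2a (chr11:58954685-58956830, plus strand): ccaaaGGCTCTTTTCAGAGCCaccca
Hist3h2ba (chr11:58948920-58949533, plus strand): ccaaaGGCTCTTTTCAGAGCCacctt
Hist1h1c (chr13:23738808-23740367, plus strand): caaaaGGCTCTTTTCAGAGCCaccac
H2afx (chr9:44334694-44336077, plus strand): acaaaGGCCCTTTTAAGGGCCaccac
The first 4 annotated transcripts stop 3, 23, 23 and 30 bases after the stem-loop. The others run on for 1643 bases in Hist3h2a, 169 in Hist3h2ba, 840 in Hist1h1c and 822 in H2afx, each with a poly(A) signal near its end. In Hist3h2a, Hist1h1c and H2afx the stem-loop thus lies further than 400 bases from that end. The window was therefore not counted from that end in every gene, and a gene with no match may hold one outside the window. No stem-loop was found in Hist1h2bc, the replication-linked gene with the most UMIs.

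The 250 bases before the start of both genes of the H3 variant and of Hist1h2bk are shown for the motifs that replication-linked promoters are known for. The motifs searched on both strands were the TATA box (TATAAA), the CCAAT box, the octamer ATTTGCAT, and the cyclic AMP response element TGACGTCA. Matches stand in capitals (RefSeq promoters, build GRCm38.p6).
H3f3b (chr11:116024505-116024754, minus strand): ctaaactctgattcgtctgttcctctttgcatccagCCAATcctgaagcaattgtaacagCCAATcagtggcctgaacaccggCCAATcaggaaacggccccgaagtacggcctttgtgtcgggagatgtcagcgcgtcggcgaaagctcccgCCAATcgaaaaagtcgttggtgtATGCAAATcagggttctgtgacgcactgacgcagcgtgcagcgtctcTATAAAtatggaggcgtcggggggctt
H3f3a (chr1:180813606-180813855, minus strand): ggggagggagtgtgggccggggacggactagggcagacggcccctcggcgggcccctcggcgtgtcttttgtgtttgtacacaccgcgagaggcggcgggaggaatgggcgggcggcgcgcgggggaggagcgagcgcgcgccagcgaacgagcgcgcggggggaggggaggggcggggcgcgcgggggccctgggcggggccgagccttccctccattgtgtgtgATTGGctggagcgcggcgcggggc
Hist1h2bk (chr13:22035571-22035820, plus strand): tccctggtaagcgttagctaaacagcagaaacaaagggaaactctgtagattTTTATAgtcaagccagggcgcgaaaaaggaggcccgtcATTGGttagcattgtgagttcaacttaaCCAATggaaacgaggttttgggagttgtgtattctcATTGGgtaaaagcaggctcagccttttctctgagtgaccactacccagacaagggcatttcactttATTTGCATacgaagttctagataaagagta
H3f3b held TATAAA, 4 CCAAT matches and the octamer, whereas H3f3a held 1 CCAAT match. In RefSeq windows reaching 50 bases past the start, TATAAA was found in 35 of 62 replication-linked promoters (56.5%), 1 of 13 variant promoters and 14.2% of 27025 promoters. CCAAT was found in 53 of 62 (85.5%), 9 of 13 and 37.9%, and the octamer in 14 of 62 (22.6%) and 1.75%. Among 17 promoters of H2B genes, 7 held the octamer (41.2%). These are matches of letters, not sites of binding.

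Variant genes supplied most histone UMIs. They held 109884 of the 121441 counted, against 11557 for the replication-linked genes. H3f3b alone had 12404 UMIs in CONV, 10441 in FLASH and 26886 in NI. H3f3a had 6495, 5026 and 9568 UMIs in the same order, and H2afz 3966, 2880 and 11532. Hist1h2bc, an H2B gene, had 1210 in CONV, 1018 in FLASH and 965 in NI, the most of any replication-linked gene. Dividing thymocyte-like cells held 17.9% of all H3f3b UMIs, 43.0% of H2afz, 65.2% of H2afx and 75.1% of Hist1h2ap, an H2A gene, but 4.4% of Hist1h2bc. The heat map of the measured genes shows the same split: 1 set of replication-linked genes was near 0 outside thymocyte-like cells, while Hist1h2bc, Hist1h1c and Hist3h2a were present in every compartment.

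**Figure D1:**
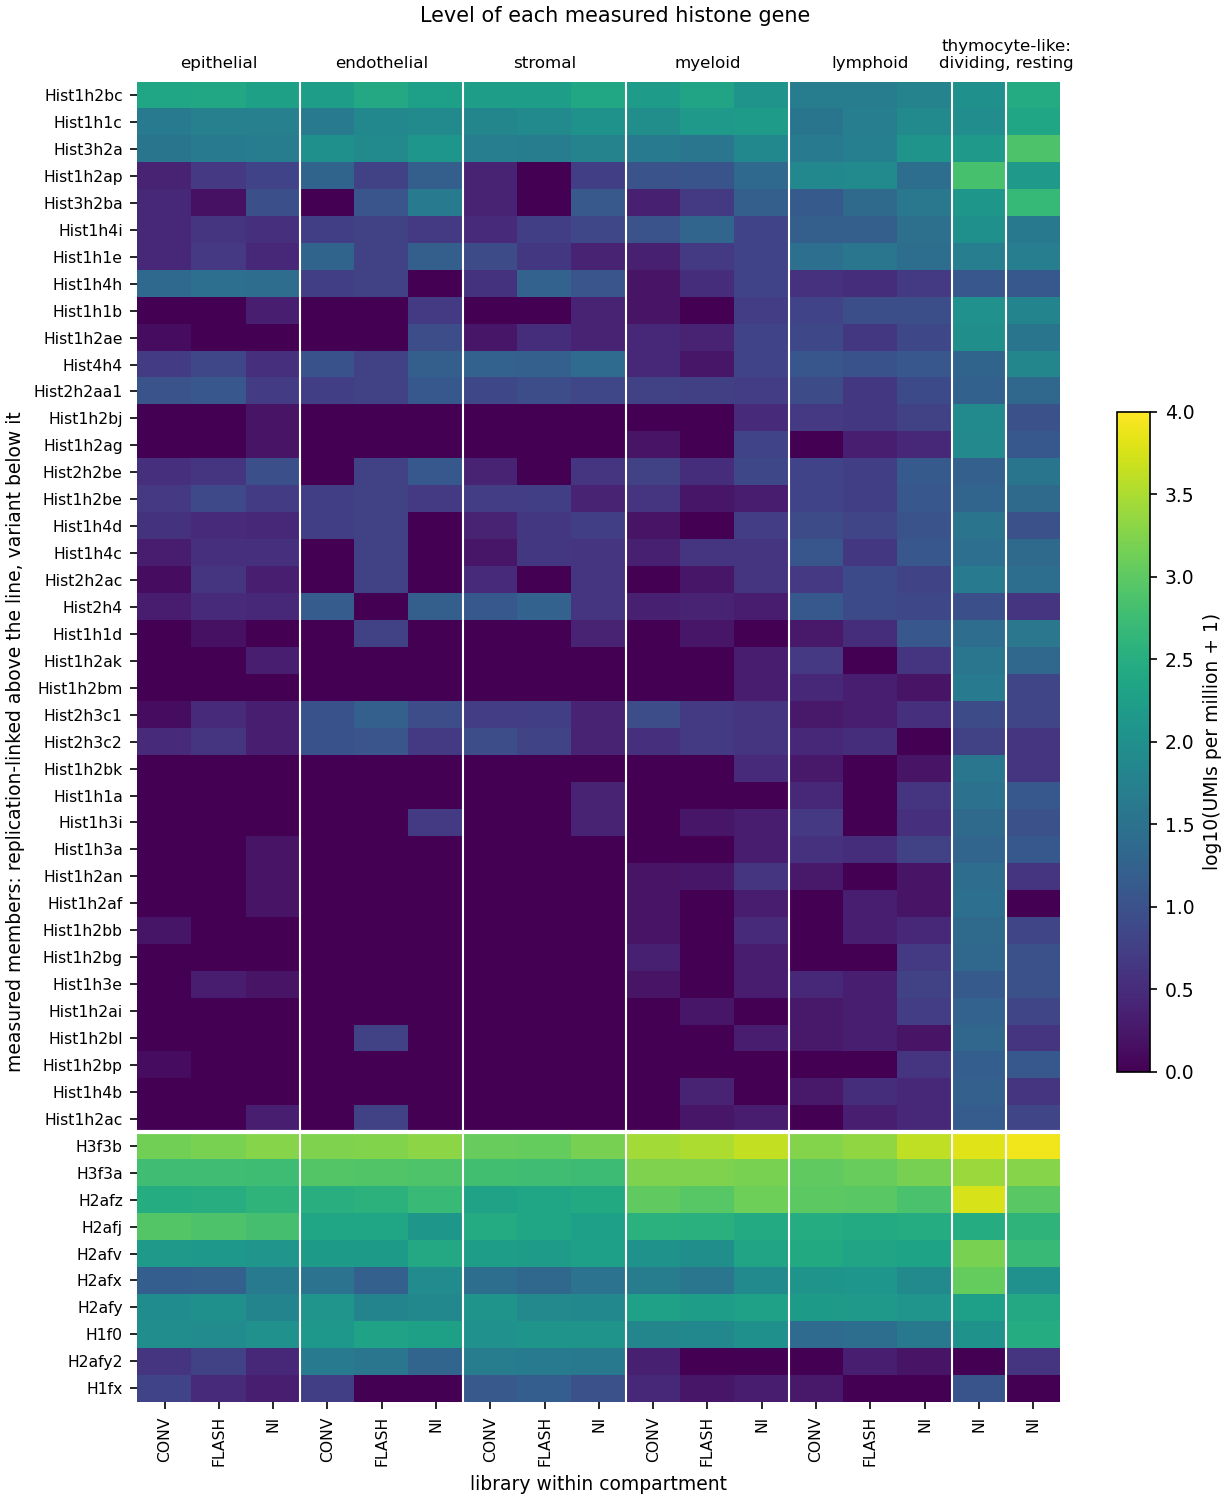
Level of each of the 49 measured histone genes, as log10(CPM + 1), with genes down the page (replication-linked above the white line, variant below) and libraries within each compartment across it. The variant genes H3f3b, H3f3a and H2afz were high in every column, whereas Hist1h2bj, Hist1h2ag and Hist1h2bk, with 116, 106 and 51 UMIs in dividing thymocyte-like cells, were at or near 0 in the 5 compartments.

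The summed replication-linked genes reached 365 CPM in CONV, 430 in FLASH and 982 in NI over all cells. Without the thymocyte-like clusters the levels were 365, 430 and 475 CPM, and CONV stood at 0.768 (0.726 to 0.812) and FLASH at 0.905 (0.854 to 0.959) of NI. Such a library sum mixes the number of cells of each type with the level in each cell, which cannot be told apart in it. The variant sum without thymocyte-like cells was 4157 CPM in CONV, 4395 in FLASH and 5514 in NI, which put CONV at 0.754 (0.742 to 0.766) and FLASH at 0.797 (0.783 to 0.811) of NI. Both kinds of gene were thus lower in both irradiated libraries than in NI, and the share of histone UMIs that came from replication-linked genes was close in all 3, at 8.07% in CONV, 8.91% in FLASH and 7.94% in NI.

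By compartment, the replication-linked sum was lower than NI in both irradiated libraries in stromal and lymphoid cells. Stromal cells had 368 CPM in CONV, 386 in FLASH and 512 in NI, with ratios to NI of 0.718 (0.625 to 0.826) and 0.754 (0.647 to 0.879). Lymphoid cells had 369, 394 and 550 CPM, with ratios of 0.670 (0.595 to 0.755) and 0.716 (0.630 to 0.812). Elsewhere the irradiated libraries parted. Myeloid cells had 357 CPM in CONV, 467 in FLASH and 481 in NI, so that CONV was lower than NI at 0.742 (0.654 to 0.842) while the FLASH interval held 1, at 0.971 (0.858 to 1.10). Epithelial cells had 362, 433 and 375 CPM, with 0.967 (0.874 to 1.07) for CONV and 1.16 (1.04 to 1.28) for FLASH. Endothelial cells had 417, 517 and 548 CPM on fewer cells, with 0.760 (0.578 to 0.996) and 0.943 (0.722 to 1.23). RNA carried over from thymocyte-like cells into other cells of NI, estimated from 7 thymocyte genes as given below, moves with these gaps. In NI it would amount to 181 CPM of the lymphoid sum, against a gap to NI of 181 CPM in CONV and 156 in FLASH. It would amount to 76.9 CPM in stromal cells (gaps of 144 and 126), 108 in myeloid cells (124 and 14) and 152 in endothelial cells (131 and 31.3). The lymphoid amount rests largely on 1 unnamed cluster, led by Itm2a. That cluster held 166 of the 264 UMIs of the 7 genes in NI lymphoid cells.

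The variant sum followed another order: it was highest in myeloid and lymphoid cells and lowest in stromal cells in all 3 libraries. Myeloid cells had 6265 CPM in CONV, 6514 in FLASH and 8102 in NI, and lymphoid cells 4733, 5079 and 7063. Stromal cells had 2747, 2603 and 2974 CPM. In these 3 compartments, and in the epithelial and endothelial ones, CONV and FLASH were both lower than NI, with ratios from 0.670 for CONV lymphoid to 0.932 for FLASH epithelial. Carried thymocyte RNA in NI would amount to 1236 CPM of the variant sum in lymphoid and 732 in myeloid cells, less than either gap. In stromal cells it would amount to 524 CPM (gaps of 227 in CONV and 370 in FLASH) and in endothelial cells to 1034 (455 and 374), more than either gap. Replication-linked genes made up the largest share of histone UMIs in stromal cells (11.8% in CONV, 12.9% in FLASH, 14.7% in NI) and the smallest in myeloid cells (5.39%, 6.68% and 5.6%).

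**Figure D2:**
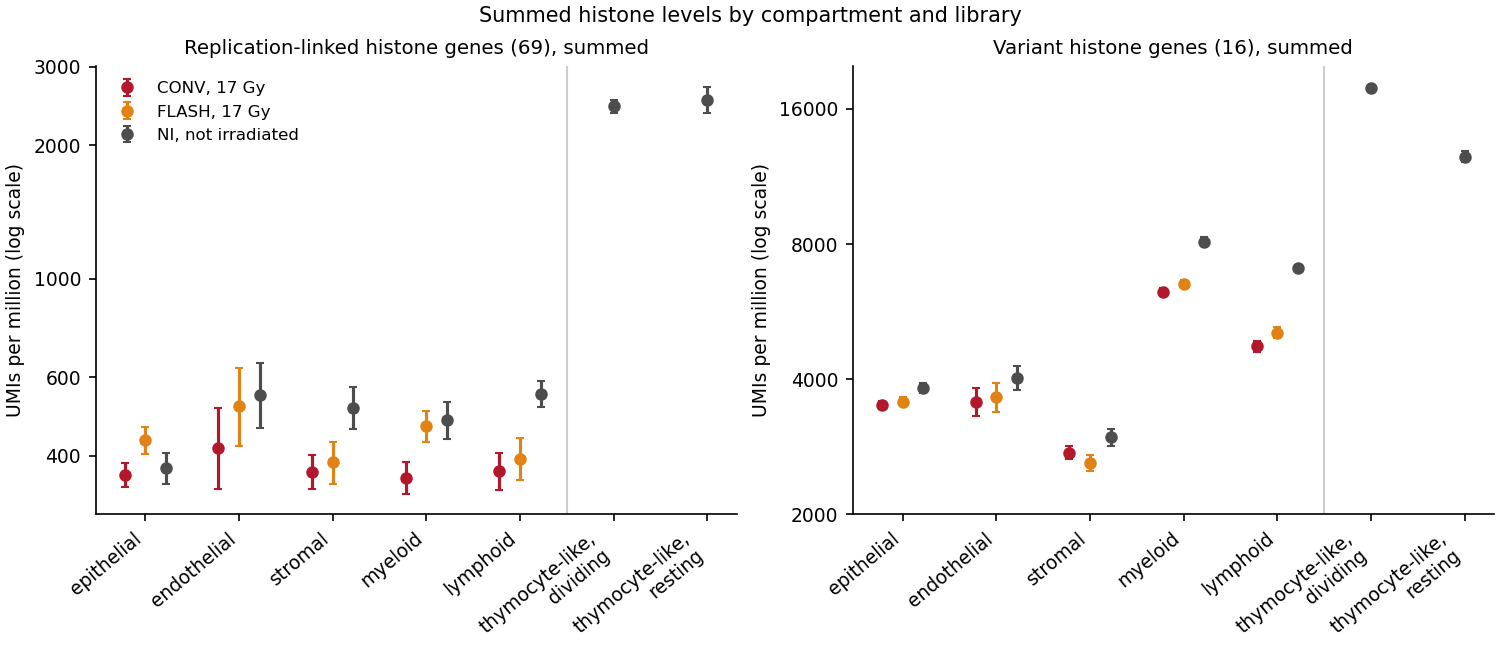
Summed CPM (log scale) of the 69 replication-linked genes (left) and the 16 variant genes (right) in each compartment and in the thymocyte-like cells of NI, with points for each library and bars for 95% counting intervals. The thymocyte-like cells sit far above the 5 compartments in both panels, and dividing and resting ones overlap for the replication-linked sum but not for the variant sum.

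A gene was called between libraries when its CPM differed at least 2-fold and the pair held at least 20 of its UMIs. Over all cells, 41 of the 55 histone genes with enough UMIs were called lower in CONV than in NI, where 9.14% of all genes were, and 1 was called higher (9.85% of all genes). In FLASH 41 of 55 were called lower (8.94%) and none higher (9.33%). Without the thymocyte-like clusters the counts were much smaller: in CONV 8 of 31 were called lower (4.74% of all genes) and 2 higher (5.01%), and in FLASH 5 of 31 lower (4.62%) and 1 higher (4.8%). All genes called lower there were replication-linked, and Hist2h2be, Hist3h2ba, Hist1h1b, Hist1h1d and Hist1h2ae were called in both. Hist3h2ba, an H2B gene, had 23 UMIs in CONV, 28 in FLASH and 110 in NI, and Hist2h2be, another, had 23, 14 and 45. The higher ones were Hist2h3c2, an H3 gene with 25 UMIs in CONV, 20 in FLASH and 7 in NI, and in CONV the linker variant H1fx with 37, 18 and 9.

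Dividing against resting thymocyte-like cells of NI differed in which histone genes they used more than in the replication-linked total. That sum was 2446 CPM in dividing and 2534 in resting cells, a ratio of 0.965 (0.896 to 1.04). This ratio depended on the processing. It fell below that interval at a mitochondrial limit of 20%, with no doublet removal and with equally weighted cells, as given in the last section. The variant sum was 17811 and 12530 CPM, a ratio of 1.42 (1.38 to 1.47). Of 38 replication-linked genes with enough UMIs, 20 were called higher in dividing cells, where 13.1% of all genes were, and 6 lower (14.2% of all genes). With every cell thinned to 1000 UMIs, 4 replication-linked genes were called higher. Of 8 variant genes with enough UMIs, 3 were called higher and 1 lower, and the median ratio over all genes was 0.933.

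The 20 replication-linked genes called higher in dividing cells were all Hist1h genes, which form the large cluster on chromosome 13. For Hist1h2ai, Hist1h3i, Hist1h2bg, Hist1h2ac, Hist1h2bb, Hist1h4b and Hist1h1a among them the interval held 1, on 1 to 4 resting UMIs each. Hist1h2ap had 972 UMIs in dividing and 49 in resting cells, or 691 and 144 CPM, a ratio of 4.80 (3.60 to 6.53). Hist1h2bj, an H2B gene, had 116 and 3 UMIs, a ratio of 9.36 (3.12 to 46.0), and Hist1h2ag, an H2A gene, had 106 and 4, a ratio of 6.41 (2.43 to 24.0). Hist1h2bj and Hist1h2ag were at or near 3 counts in resting cells, whereas Hist1h2ap, with 49 UMIs, was well above that. Hist1h2bk had 51 UMIs in dividing cells and 1 in resting cells (12.3, 2.12 to 497), Hist1h2bm had 60 and 2 (7.26, 1.92 to 61.3), and Hist1h2ae had 138 and 12 (2.78, 1.54 to 5.52). Hist1h2af had 39 UMIs in dividing cells and 0 in resting cells, at least 3.15-fold higher against 3 counts in the resting cells. Linker genes were mixed: Hist1h1a had 44 and 4 UMIs, a ratio of 2.66 (0.969 to 10.2), Hist1h1b had 149 and 21 UMIs, a ratio of 1.72 (1.08 to 2.86), and Hist1h1e had 71 and 17, a ratio of 1.01 (0.589 to 1.83).

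Other replication-linked genes were lower in dividing cells. Hist3h2a, an H2A gene, had 195 UMIs in dividing and 256 in resting cells, or 139 and 753 CPM, a ratio of 0.184 (0.152 to 0.223). Its neighbour Hist3h2ba, whose start lies 5765 bases away, had 132 and 476 CPM, a ratio of 0.276 (0.223 to 0.343). Hist4h4, an H4 gene, stood at 0.274 (0.150 to 0.502) and Hist1h2bc at 0.345 (0.265 to 0.450). Hist1h1c, a linker gene, had 88.9 and 232 CPM, a ratio of 0.383 (0.287 to 0.514). All 5 were present in lung cells outside the thymocyte-like clusters in every library, and Hist2h2be, with 22 and 12 UMIs, was the sixth called lower.

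The replication-linked genes were also summed by where the annotated transcript ends. The 21 genes whose transcript stops within 60 bases of the stem-loop had 1547 UMIs in dividing and 95 in resting cells, or 1100 and 279 CPM, a ratio of 3.94 (3.20 to 4.90). The 21 genes whose transcript extends further had 798 and 1720 CPM, a ratio of 0.464 (0.420 to 0.514). The 27 genes with no match, 2 of them without a transcript, had 548 and 535 CPM, a ratio of 1.02 (0.870 to 1.21). Few genes set these sums. Hist3h2a, Hist3h2ba and Hist1h1c held 497 of the 585 resting UMIs of the genes that extend further, and the other genes there had 617 UMIs in dividing and 88 in resting cells, or 439 and 259 CPM, a ratio of 1.70. Hist1h2bc held 99 of the 182 resting UMIs of the genes with no match, and the others had 629 and 83 UMIs, a ratio of 1.83. Without Hist1h2ap, the genes that stop at the stem-loop had 575 and 46 UMIs, a ratio of 3.02. The genes left out were chosen after their values were seen. The summed level of the remaining genes was thus higher in dividing cells in all 3 groups, and the low sum of the extended transcripts lay in the 3 named genes. Genes ending at the stem-loop gave 45.0% of replication-linked UMIs in dividing cells and 11% in resting cells, and genes that extend past it 32.6% and 67.9%. The limit of 60 bases was set with these data known. Hist1h2ae and Hist1h4i extend past the stem-loop but were higher in dividing cells (Hist1h4i, an H4 gene, at 2.47 with 143 and 14 UMIs).

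Outside thymocyte-like cells, genes ending at the stem-loop gave a like share of replication-linked UMIs in all 3 libraries, 10.1% in CONV, 10.5% in FLASH and 10.3% in NI. Genes extending past it gave 39.0%, 40.6% and 52.4%, with 142 CPM in CONV, 175 in FLASH and 249 in NI. Genes with no match, Hist1h2bc chief among them, gave 50.9%, 48.8% and 37.3%. In lymphoid cells the genes extending past the stem-loop had 182 CPM in CONV, 209 in FLASH and 364 in NI, and those with no match 88.4, 77.3 and 116. In stromal cells the genes with no match had 193, 187 and 279 CPM, and those extending past the stem-loop 161, 174 and 210.

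Among the variant genes, those of H2A.X and H2A.Z were the ones higher in dividing thymocyte-like cells. H2afx, whose product is phosphorylated at DNA breaks, had 1595 UMIs in dividing and 35 in resting cells, or 1135 and 103 CPM, a ratio of 11 (7.90 to 15.9). It is also the variant gene with a stem-loop, followed by a further 822 bases. H2afz had 5623 and 944 CPM, a ratio of 5.96 (5.33 to 6.68), and H2afv had 1588 and 488 CPM, a ratio of 3.26 (2.78 to 3.83). H1f0, a linker variant known from differentiated cells, had 111 and 294 CPM, a ratio of 0.377 (0.292 to 0.490). The genes of the H3 variant were split: H3f3b had 6316 and 8155 CPM, a ratio of 0.774 (0.742 to 0.809), whereas H3f3a had 2542 and 1873 CPM, a ratio of 1.36 (1.25 to 1.48). Of the remaining variant genes, H2afj stood at 0.749 and H2afy at 0.696.

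**Figure D3:**
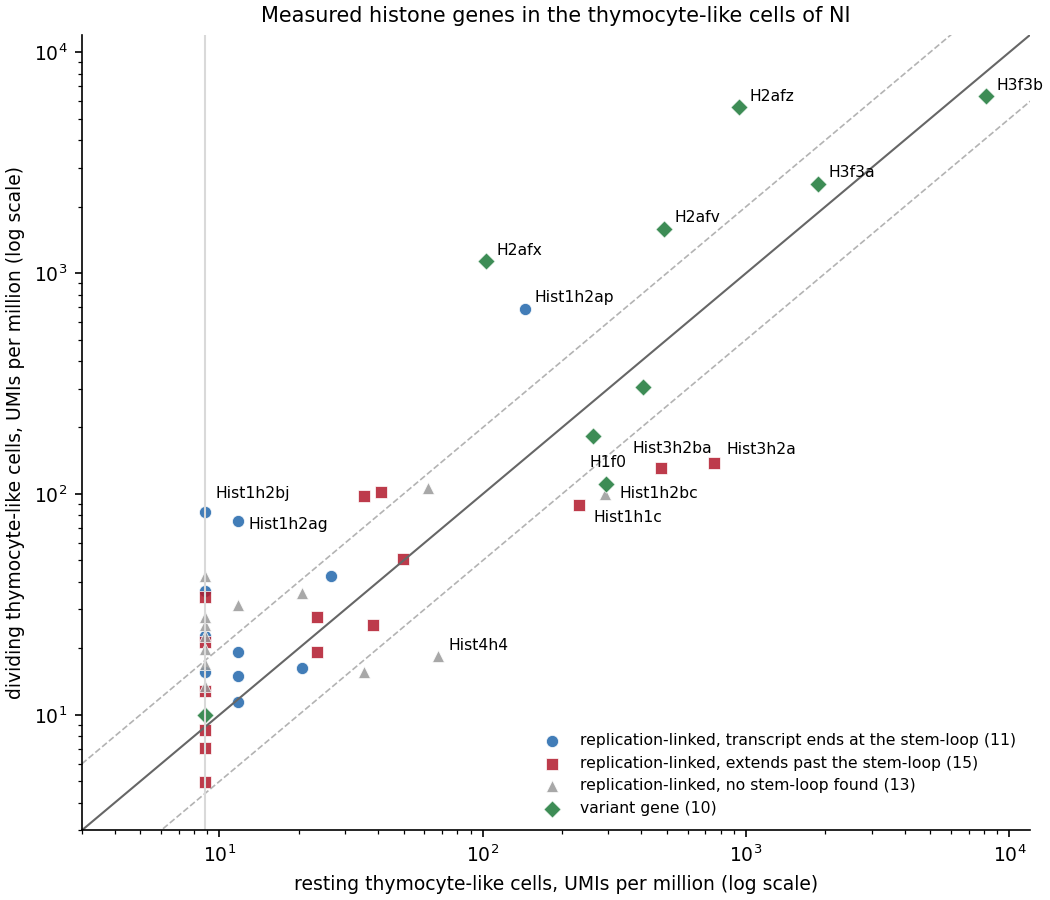
Level of each measured histone gene in dividing (vertical) and resting (horizontal) thymocyte-like cells of NI, in CPM on log scales, with dashed lines at 2-fold and a grey line at 3 counts in the resting cells, where lower values are drawn. H2afx, H2afz, H2afv and Hist1h2ap lie far above the diagonal, at ratios of 11, 5.96, 3.26 and 4.80, while Hist3h2a, Hist3h2ba, Hist1h2bc and Hist1h1c lie below the lower dashed line.

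Grouping the 354 thymocyte-like cells of NI by UMIs of S phase and mitotic genes, at least 2 of a list after thinning, gave a finer order. Cells with S phase genes only (55) had 251 CPM of Hist1h2ap, cells with both (149) 864, cells with mitotic genes only (35) 479 and cells with neither (115) 191. H2afz had 4216, 5971, 5305 and 1095 CPM in that order, and H2afx 312, 1325, 1506 and 151. Hist3h2a ran the other way, with 117, 159, 163 and 787 CPM. Every cell group with a division list thus had less Hist3h2a and more H2afz than the cells with neither. Hist1h2ap was found in 48.9% of dividing (42.1 to 55.7) and 13.5% of resting cells (8.22 to 20.5) thinned to 1000 UMIs, and in 77.8% and 28.6% unthinned. Epithelial cells of NI, used as background, had it in 1.01% thinned and 2.53% unthinned, with a median of 6641.5 UMIs against 5295 in dividing and 1871 in resting cells.

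Genes that make, process and carry histones were compared between the same cells. All 16 mitotic genes, which mark these cells, and 22 of 25 S phase genes were called higher in dividing cells, where 13.1% of all genes were. Of the genes of histone transcription and 3′ processing, 6 of 19 with enough UMIs were higher, among them Slbp, the stem-loop binding protein, with 1033 and 60 UMIs (4.17, 3.21 to 5.50), and Nelfe at 5.13. Of the chaperones of replication-linked histones, 6 of 10 were higher, among them Asf1b, with 328 and 6 UMIs (13.2), and Chaf1a, a subunit of the chromatin assembly factor of replication, at 5.16. Of the variant chaperones, 2 of 18 were higher, which is near the share of all genes. They were Anp32e, which removes H2A.Z, with 1283 and 98 UMIs (3.17, 2.58 to 3.93), and Ruvbl2 at 2.54.

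Cells with mitotic UMIs outside the thymocyte-like clusters numbered 23 in CONV, 15 in FLASH and 11 in NI, against 2364, 2228 and 1340 others, with 10 FLASH cells left out as too shallow to thin to 1000 UMIs. The replication-linked sum was higher in them in every library: 793 and 357 CPM in CONV (2.22, 1.79 to 2.72), 1234 and 419 in FLASH (2.94, 2.35 to 3.64), and 1035 and 467 in NI (2.22, 1.74 to 2.79). These cells were of different types: 17 of the 23 in CONV and 13 of the 15 in FLASH were lymphoid, whereas 7 of the 11 in NI were myeloid. Within lymphoid cells the sum was 925 CPM in dividing and 327 in other cells of CONV (2.83, 2.17 to 3.66) and 1345 and 329 CPM in FLASH (4.09, 3.13 to 5.30). Within myeloid cells of NI it was 1322 and 438 CPM (3.02, 2.25 to 3.97). In the other lymphoid and myeloid groups the interval of the ratio held 1. Myeloid cells stood at 1.57 (0.998 to 2.37) in CONV and 1.80 (0.954 to 3.11) in FLASH, on 6 and 2 dividing cells. Lymphoid cells of NI stood at 1.18 (0.430 to 2.57), on 2 dividing cells. Hist1h2ap had 41 UMIs in the dividing and 64 in the other cells of CONV, 42 and 47 in FLASH, and 20 and 60 in NI, ratios of 36.6, 63.4 and 23.2. So a handful of cells held a large part of this gene's UMIs outside the thymocyte-like clusters. H2afz was 8.72, 8.44 and 8.15 times higher in dividing cells of CONV, FLASH and NI, H2afx 23.0, 43.1 and 12.4 times, and H2afv 7.06, 8.00 and 6.78 times. H3f3b was 1.32, 1.26 and 1.24 times higher and H3f3a 1.71, 1.81 and 1.78 times. Of the members with enough UMIs, 10 of 26 were called higher in CONV (13.8% of all genes), 9 of 22 in FLASH (15.1%) and 9 of 25 in NI (19.3%), and 9, 5 and 7 were called lower (43.5%, 48.6% and 36.9% of all genes).

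H3f3b was lower in both irradiated libraries than in NI in every compartment. Epithelial cells had 1430 CPM in CONV, 1556 in FLASH and 1853 in NI, with ratios to NI of 0.772 (0.736 to 0.809) and 0.840 (0.799 to 0.883). Myeloid cells had 2759, 3224 and 4369 CPM, with 0.631 (0.605 to 0.659) and 0.738 (0.707 to 0.771). Lymphoid cells had 1836, 2148 and 4121 CPM, with 0.445 (0.424 to 0.468) and 0.521 (0.495 to 0.549). Stromal cells had 1174, 1147 and 1515 CPM, and endothelial cells 1668, 1771 and 1985, where the FLASH interval held 1 (0.775 to 1.03). The gap was widest in lymphoid and myeloid cells. Without the unnamed Itm2a-led cluster the lymphoid ratios stood at 0.481 (0.455 to 0.510) for CONV and 0.556 (0.525 to 0.589) for FLASH.

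H3f3a, which encodes the same protein, was close to NI in 4 of the 5 compartments. Epithelial cells had 593 CPM in CONV, 599 in FLASH and 578 in NI, stromal cells 609, 582 and 557, endothelial cells 857, 810 and 796, and myeloid cells 1665, 1659 and 1549. The ratios to NI in these 4 compartments ran between 1.02 and 1.09. Lymphoid cells had 1053, 1192 and 1493 CPM, with ratios of 0.706 (0.658 to 0.757) and 0.799 (0.742 to 0.860). This pooled value mixes classes whose share differed between libraries: B-like cells, which had the most H3f3a, made up 95 of 528 lymphoid cells in CONV, 138 of 552 in FLASH and 230 of 645 in NI. B-like cells had 2213 CPM in CONV, 2189 in FLASH and 2418 in NI, T-like cells 669, 772 and 779, and natural killer-like cells 891, 884 and 771. Within the epithelial compartment, ciliated-like cells had 892, 1091 and 1603 CPM in 98, 90 and 20 cells. Within the myeloid compartment, alveolar macrophage-like cells had 804 CPM in CONV, 992 in FLASH and 1011 in NI.

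The ratio of H3f3b to H3f3a UMIs was therefore lower in both irradiated libraries in every compartment. It was 2.41 in CONV, 2.60 in FLASH and 3.21 in NI in epithelial cells, 1.93, 1.97 and 2.72 in stromal cells, and 1.95, 2.19 and 2.50 in endothelial cells. The endothelial intervals overlapped, at 1.63 to 2.33, 1.80 to 2.66 and 2.12 to 2.95. Myeloid cells had 1.66, 1.94 and 2.82, and lymphoid cells 1.74, 1.80 and 2.76. The ratio was lower than NI in both irradiated libraries in 16 of the 17 named classes with a value in all 3 libraries. In some of these the intervals overlapped that of NI, as in mesothelium-like cells (0.766 to 1.49, 0.670 to 2.31 and 1.15 to 2.29). B-like cells had 1.19, 1.18 and 1.99, T-like cells 2.24, 2.23 and 3.64, alveolar fibroblast-like cells 2.21, 2.40 and 3.21, and alveolar type 2-like cells 2.15, 2.32 and 2.84. Alveolar macrophage-like cells were the exception, with 2.25 in CONV, 2.08 in FLASH and 2.15 in NI. There H3f3b had 1809, 2063 and 2174 CPM. Interstitial macrophage-like cells had the highest ratios of these classes, at 3.75, 4.81 and 6.58.

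**Figure D4:**
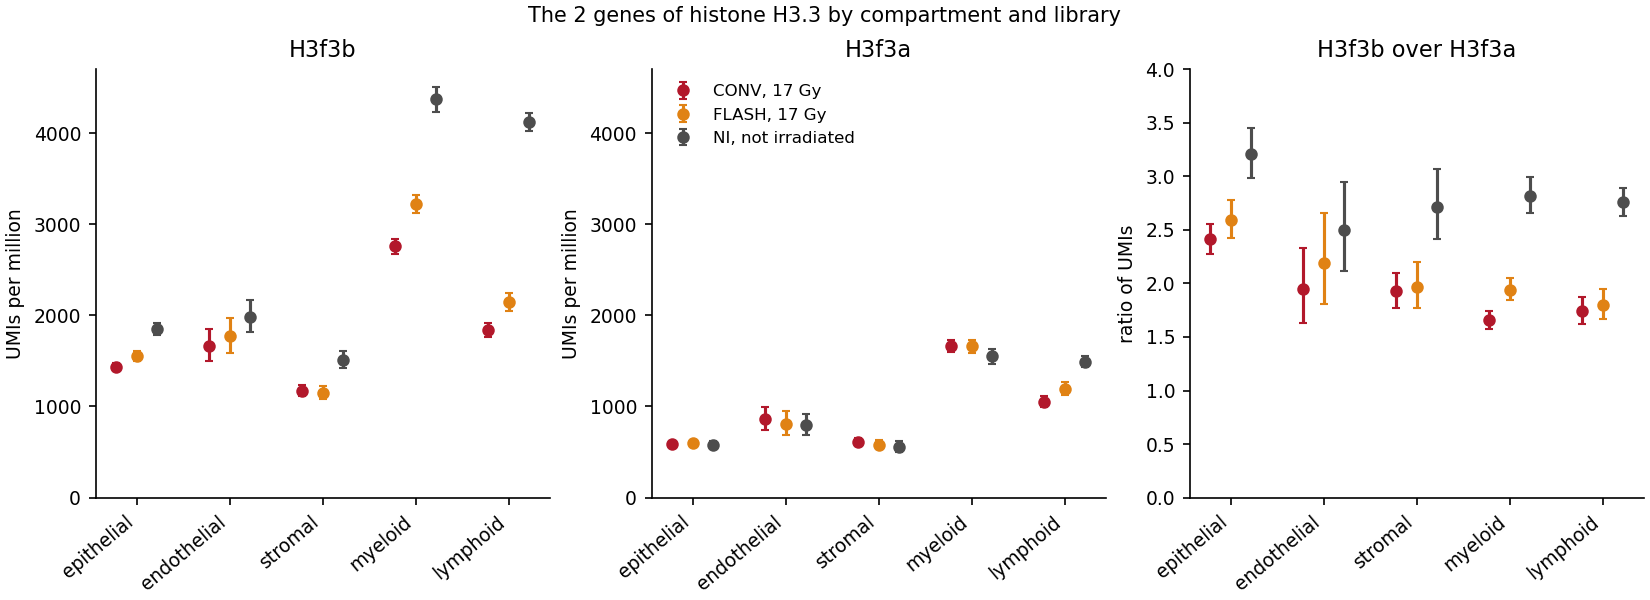
H3f3b (left) and H3f3a (middle) in CPM and the ratio of their UMIs (right) in each compartment, with points for the libraries and bars for 95% counting intervals. H3f3b is highest in NI in all 5 compartments, and the ratio in NI lies between 2.50 and 3.21, against 1.66 to 2.41 in CONV and 1.80 to 2.60 in FLASH.

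RNA of thymocyte genes was present in other cells of NI, mostly at a low level, and moves with these comparisons. The summed level of 7 thymocyte genes (Rag1, Rag2, Dntt, Ptcra, Ccr9, Endou and Arpp21), as a share of the level in thymocyte-like cells, was 0.126% in CONV, 0.0678% in FLASH and 1.52% in NI for epithelial cells. It was 0.453%, 0.581% and 4.36% for myeloid and 0.673%, 0.563% and 7.36% for lymphoid cells. The lymphoid share of NI was uneven, at 18.6% in the Itm2a-led cluster, which held 166 of the 264 UMIs. B-like cells had 3.32%, T-like cells 5.39% and natural killer-like cells 1.12%. Whether cells of that cluster make these genes themselves was not tested. In NI, thymocyte RNA at the compartment shares would amount to 102 CPM of H3f3b in epithelial, 291 in myeloid and 491 in lymphoid cells, which is less than the gap to either irradiated library in each. In stromal cells it would amount to 208 CPM, again less than the gap, but in endothelial cells to 411 CPM, which is more than the gap. In B-like cells of CONV and FLASH all 7 genes were at 0, and the NI share was 3.32%, or 222 of 4816 CPM of H3f3b, against 2632 CPM in CONV and 2591 in FLASH. For genes that dividing thymocyte-like cells hold in quantity the estimate is large. For H2afx it was 68.7 of 76.8 CPM in NI lymphoid and 29.1 of 33 CPM in NI stromal cells, below the measured level in every compartment. For Hist1h2ap it was above that level in every compartment of NI, at 43.1 against 27.1 CPM in lymphoid and 18.3 against 4.49 in stromal cells. In NI alveolar fibroblast-like cells it was 51.5 CPM of H2afx against 0 measured. Carried RNA cannot exceed the measured level, so these estimates are too high. Amounts given for other genes high in dividing cells, and for sums that hold them, may also be too high. By how much was not tested.

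Immediate early genes, which are switched on by dissociation among other stimuli, moved with H3f3b in part. The sum of 12 of them (a list chosen after these values were seen) stood in CONV and FLASH at 0.764 and 0.90 of NI in epithelial cells, 0.801 and 0.908 in myeloid cells and 0.845 and 0.839 in lymphoid cells. In T-like cells it was level with NI, at 0.976 (0.917 to 1.04) and 0.996 (0.931 to 1.07), where H3f3b had 1502 CPM in CONV, 1719 in FLASH and 2840 in NI, ratios of 0.529 (0.484 to 0.578) and 0.605 (0.550 to 0.665). The median ratio of the listed genes to NI in T-like cells was 0.846 in CONV and 1.04 in FLASH. The part of these genes in the H3f3b result was not tested, in T-like or in other cells.

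H2A.Z and H2A.X genes were lower in irradiated myeloid cells. Myeloid H2afv had 107 CPM in CONV, 97.9 in FLASH and 215 in NI, with ratios to NI of 0.499 (0.404 to 0.616) and 0.455 (0.362 to 0.571). Myeloid H2afz had 1062, 906 and 1312 CPM, with 0.809 and 0.691, and H2afx had 46.7, 36.2 and 82.4 CPM, with 0.566 and 0.440. In NI, thymocyte RNA would bring 206 of the 1312 CPM of H2afz and 40.7 of the 82.4 CPM of H2afx. Mitotic genes moved with these histone genes: 5 of 9 were called lower in CONV (3.86% of all genes) and 8 of 8 in FLASH myeloid cells (4.87%). Top2a had 29 UMIs in CONV, 3 in FLASH and 58 in NI. Few cells had mitotic UMIs: 6 of 595 in CONV, 2 of 597 in FLASH and 7 of 231 in NI. Without cells with mitotic UMIs, an alternative added after the values were seen, myeloid H2afv stood at 0.519 (0.408 to 0.660) and 0.510 (0.396 to 0.657) of NI. Alveolar macrophage-like cells had 88.8 CPM of H2afv in CONV, 61.6 in FLASH and 209 in NI.

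Lymphoid cells gave the opposite direction, which depended on the clustering. H2afz had 982 CPM in CONV, 948 in FLASH and 697 in NI, ratios of 1.41 and 1.36, and Hist1h2ap had 71.4, 78.5 and 27.1 CPM, ratios of 2.64 and 2.90. The unnamed Itm2a-led cluster held the difference: there H2afz had 2389, 2418 and 736 CPM and Hist1h2ap 251, 315 and 37.9. Cells with mitotic UMIs made up 14 of its 73 cells in CONV (19.2%), 10 of 55 in FLASH (18.2%) and 0 of 158 in NI. Without that cluster H2afz stood at 0.877 (0.785 to 0.980) for CONV and 1.02 (0.908 to 1.14) for FLASH, and Hist1h2ap at 0.968 (0.517 to 1.78) and 1.61 (0.922 to 2.83). With a coarser clustering both genes were lower than in NI, H2afz at 0.906 and 0.967 and Hist1h2ap at 0.440 and 0.732.

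In epithelial cells H2afz had 301 CPM in CONV, 314 in FLASH and 402 in NI, ratios of 0.749 and 0.781. H2afx had 41, 31 and 74 UMIs there, with ratios of 0.327 (0.217 to 0.485) and 0.354 (0.225 to 0.546). Much of the NI value lay in few cells: ciliated-like cells had 13 UMIs in 98 cells of CONV, 17 in 90 of FLASH and 33 in 20 of NI, while alveolar type 2-like cells had 14.6, 13.1 and 23.8 CPM. Thymocyte RNA would bring 71.7 of the 402 CPM of H2afz and 14.2 of the 44.6 CPM of H2afx in NI epithelial cells. Endothelial cells had 7, 3 and 22 UMIs of H2afx, and thymocyte RNA would bring 57.5 of the 85 CPM in NI.

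H2afj and H2afy ran the other way and were higher after irradiation in several compartments. H2afj encodes an H2A variant that is abundant in alveolar type 2 cells in these data, with 1239 CPM in CONV, 1120 in FLASH and 1041 in NI in cells like them. Epithelial cells as a whole had 836, 754 and 658 CPM, with ratios to NI of 1.27 (1.18 to 1.37) and 1.15 (1.06 to 1.24). Stromal cells had 283, 224 and 181 CPM, with 1.56 (1.27 to 1.93) and 1.24, and endothelial cells 220, 225 and 131, with 1.68 (1.06 to 2.68) and 1.71 (1.07 to 2.77). Lymphoid cells did not share this, at 0.986 and 0.917. H2afj lies 3829 bases from the start of Hist4h4, from which it is transcribed divergently, and the pair had 8654 and 184 UMIs over the 3 libraries.

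The macroH2A gene H2afy had 87.3 CPM in CONV, 99.9 in FLASH and 63.2 in NI in epithelial cells, ratios of 1.38 and 1.58. In stromal cells it had 116, 76.3 and 71.9 CPM, ratios of 1.61 and 1.06, and FLASH was below CONV there at 0.659. Myeloid cells, with 196, 176 and 192 CPM, were level. Its relative H2afy2 was nearly absent from myeloid cells (2 UMIs in CONV, none in FLASH or NI) and lymphoid cells (0, 1 and 1), and was found in stromal cells at 47.5, 43.3 and 40.5 CPM and in endothelial cells at 45.8, 36.6 and 19.3 CPM on 10, 7 and 5 UMIs.

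**Figure D5:**
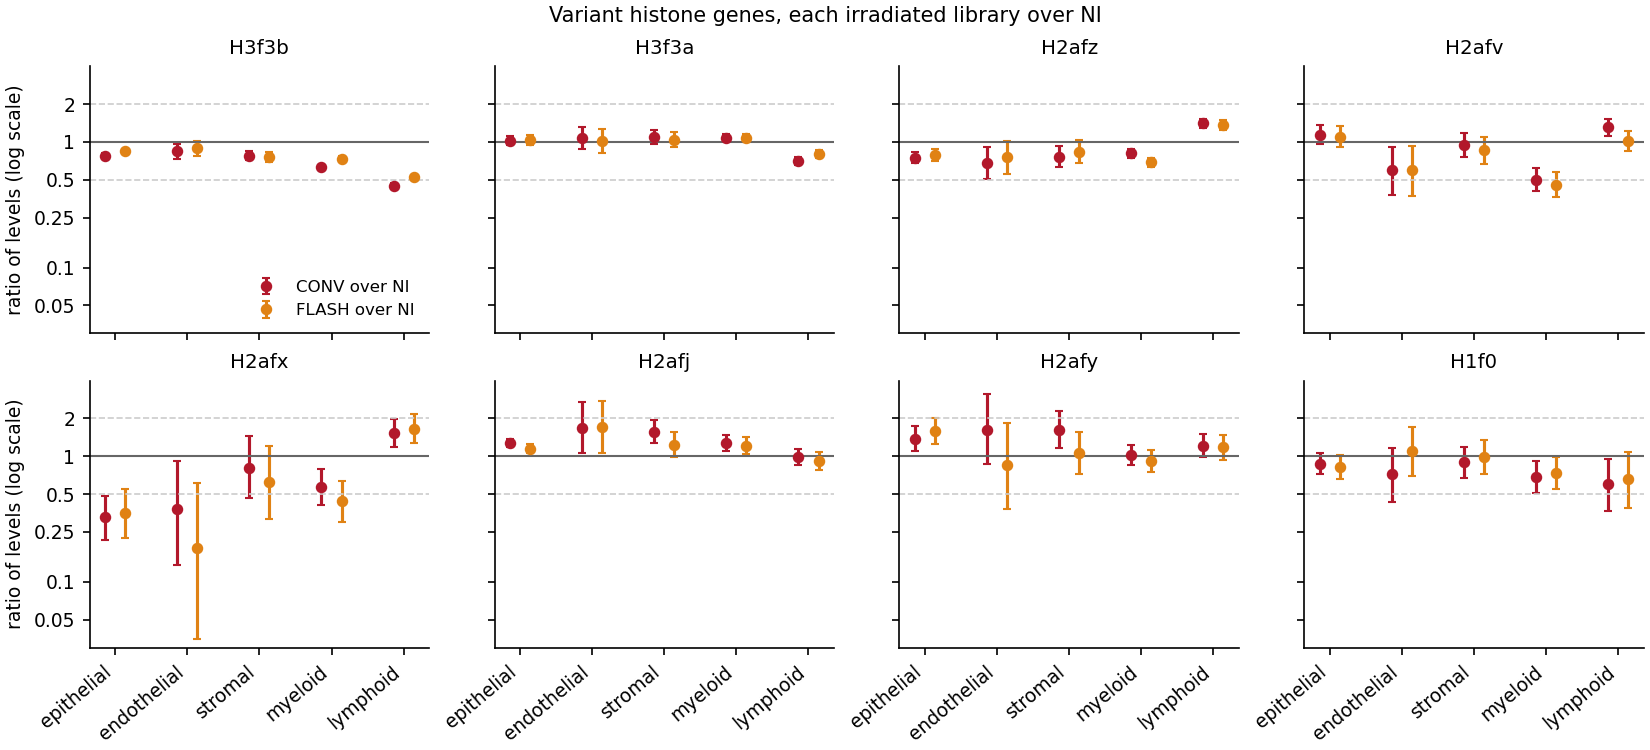
Ratio of CONV to NI and of FLASH to NI (log scale) for 8 variant genes in the 5 compartments, with bars for 95% counting intervals and dashed lines at 2-fold either way. H3f3b lies below 1 in all compartments, H3f3a lies near 1 outside lymphoid cells, and H2afj lies above 1 outside lymphoid cells.

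Among linker genes, Hist1h1c was lower in both irradiated libraries in pooled lymphoid and in stromal cells. It had 34.8 CPM in CONV, 49.6 in FLASH and 80.5 in NI in lymphoid cells, ratios of 0.432 and 0.616. Stromal cells had 68.4, 77.5 and 109, ratios of 0.625 and 0.708. The pooled lymphoid value mixes classes. T-like cells had 26.9, 53.9 and 50.4 CPM, so FLASH was not lower than NI there. B-like cells had 86.9, 52.6 and 98.0 CPM, natural killer-like cells 7.89, 64.1 and 96.9, and the Itm2a-led cluster 25.1, 15.7 and 80.9. In myeloid cells Hist1h1c had 94.6, 143 and 153 CPM, so that CONV stood at 0.618 while FLASH stood at 0.932 of NI and 1.51 (1.21 to 1.88) of CONV. Hist1h1e had 27.7, 35.8 and 27.1 CPM in lymphoid cells. H1f0 was lower in both irradiated libraries in myeloid cells (67.8, 73.3 and 99.5 CPM). In lymphoid cells it had 24.1, 26.6 and 40.3 CPM, but the direction turned without the Itm2a-led cluster, to 17.0 CPM in CONV, 24.3 in FLASH and 10.9 in NI on 15, 18 and 13 UMIs, with ratios to NI of 1.56 (0.694 to 3.57) and 2.24 (1.04 to 4.96). The cluster itself had 50.2, 39.4 and 129 CPM. Stromal H1f0 differed little, with 106 CPM in CONV, 116 in FLASH and 118 in NI.

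Hist1h2bc, the replication-linked gene with the most UMIs, was highest in classes other than the dividing thymocyte-like cells. Levels peaked in alveolar type 1-like cells, with 1170 CPM in CONV, 1146 in FLASH and 891 in NI on 85, 78 and 27 UMIs, in ciliated-like cells, with 549, 677 and 761, and in mesothelium-like cells, with 514, 754 and 739. T-like cells had 35.8, 25.7 and 18.3 CPM. In myeloid cells of NI, Hist1h2bc was higher in the 7 cells with mitotic UMIs, at 291 against 109 CPM (2.67, 1.37 to 4.79). In myeloid cells of CONV and FLASH it stood at 0.732 and 0.292, with intervals that held 1. Its divergent neighbour Hist1h2ac, whose start lies 251 bases away, had 30 UMIs against its 3193. Hist1h2bc was found in 20.3% of epithelial cells in CONV, 21.3% in FLASH and 16.2% in NI thinned to 1000 UMIs (47.6%, 47.7% and 52.5% unthinned), against 3.01%, 1.51% and 1.78% of thinned T-like cells (6.02%, 3.76% and 4.73% unthinned). Median depth was 3881 UMIs in CONV, 3241 in FLASH and 6641.5 in NI epithelial cells, and 1776, 1439.5 and 2414 in T-like cells.

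Hist1h2bc was higher in both irradiated libraries in myeloid cells, with 156 CPM in CONV, 217 in FLASH and 118 in NI, ratios of 1.33 (1.05 to 1.68) and 1.85 (1.48 to 2.32). FLASH was above CONV, at 1.39 (1.17 to 1.66). Alveolar macrophage-like cells held most of these UMIs in both irradiated libraries, with 353, 485 and 229 CPM. There FLASH was called higher than NI at 2.12 (1.57 to 2.90), 1 of 11 histone genes with enough UMIs, where 3.67% of all genes were. Epithelial cells had 225, 253 and 187 CPM, ratios of 1.2 (1.05 to 1.38) and 1.35 (1.17 to 1.56). Their classes differed: alveolar type 2-like cells had 131, 140 and 96.2 CPM, but club-like cells 76.1, 72.4 and 158. Ciliated-like cells were also below NI, and alveolar type 1-like cells above it. The pooled value mixes these classes: ciliated-like cells were 98 of 590 epithelial cells in CONV, 90 of 503 in FLASH and 20 of 198 in NI. Stromal cells were lower than in NI, with 174, 170 and 244 CPM, ratios of 0.711 and 0.695.

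Hist3h2a and Hist3h2ba, the pair on chromosome 11 that was lower in dividing thymocyte-like cells, were lower in irradiated lymphoid cells. Hist3h2a had 43.7 CPM in CONV, 51.9 in FLASH and 118 in NI, ratios of 0.372 (0.266 to 0.512) and 0.441 (0.311 to 0.614), and Hist3h2ba had 14, 20 and 63 UMIs. Thymocyte RNA would bring 19.0 of the 118 CPM of Hist3h2a and 14.6 of the 39.6 CPM of Hist3h2ba in NI lymphoid cells. Hist3h2a was also lower in myeloid cells, with 45.4, 36.2 and 73.9 CPM. Hist1h4h, an H4 gene, was concentrated in ciliated-like cells, with 87.5, 124 and 283 CPM on 47, 43 and 38 UMIs, against 3.17, 2.82 and 1.13 CPM in alveolar type 2-like cells.

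Few histone genes were called within compartments, and most of those were lower in irradiated cells. Over the 5 compartments, 2 calls were higher and 11 lower in CONV against NI, and 3 higher and 12 lower in FLASH against NI. Epithelial cells had 1 of 14 higher in CONV (6.88% of all genes), Hist2h2aa1, which is near the share of all genes, and 2 of 14 lower (2.77%), Hist2h2be and H2afx. The same genes were called in FLASH, out of 15 (7.59% higher and 2.85% lower over all genes). Endothelial cells had 1 of 11 lower in both, H2afx, which is near the share of all genes (8.81% and 7.89%), and none higher (6.07% and 5.6%). Stromal cells had none of 14 called in either (3.03% lower and 4.44% higher in CONV, 3.82% and 3.62% in FLASH). Myeloid cells had 2 of 13 lower in CONV (3.86%), H2afv and Hist1h2ap, and none higher (4.61%). In FLASH they had 4 of 13 lower (4.87%), H2afx, H2afv, Hist3h2a and Hist1h2ap, and 1 of 13 higher (4.47%), Hist1h4i. Lymphoid cells had 6 of 21 lower in CONV (6.27%), Hist2h2be, Hist3h2ba, Hist3h2a, H3f3b, Hist1h2be and Hist1h1c, and 5 of 22 in FLASH (7.19%), Hist2h2be, Hist3h2a, Hist1h1d, Hist1h2be and Hist1h4c, with Hist1h2ap higher in both (3.37% and 2.85%). Without the Itm2a-led cluster, 6 of 18 were lower in CONV (6.47% of all genes), Hist2h2be, Hist3h2ba, Hist3h2a, H3f3b, Hist1h4i and Hist1h1c, and none higher (2.97%). In FLASH none of the 5 was called lower without it: Hist3h2a stood at 0.575 (0.394 to 0.824), and the other 4 had under 20 UMIs left in the pair. The FLASH calls there were Hist1h4i lower, 1 of 16 (6.28%), and H1f0 higher (2.72%).

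FLASH and CONV, given at the same dose, differed less from each other than either did from NI. Over all cells 1 of 28 histone genes was called higher in FLASH, Hist2h2ac (1.07% of all genes), and none lower (1.08%), and without thymocyte-like cells the counts were again 1 higher (1.05%) and 0 lower (1.08%). Hist2h2ac, an H2A gene, had 14 UMIs in FLASH and 8 in CONV. Over the 5 compartments the only call was Hist1h4i in myeloid cells (1.32% of all genes), with 25 UMIs in FLASH and 15 in CONV, a ratio of 2.01 (1.02 to 4.10). No histone gene was called lower in FLASH than in CONV in myeloid cells (2.21%), or called in either direction in epithelial cells (1.3% of all genes higher, 1.49% lower), endothelial cells (3.34% and 3.92%), stromal cells (1.34% and 2.14%) or lymphoid cells (1.59% and 2.8%). The replication-linked sum was higher in FLASH than in CONV in myeloid cells, at 467 and 357 CPM (1.31, 1.16 to 1.47), and in epithelial cells, at 433 and 362 CPM (1.2, 1.09 to 1.31), and the intervals held 1 in stromal, lymphoid and endothelial cells. H3f3b was higher in FLASH than in CONV in myeloid cells, at 3224 and 2759 CPM (1.17, 1.12 to 1.22), and in lymphoid cells, at 2148 and 1836 CPM (1.17, 1.10 to 1.25). The cells of FLASH were the shallowest, with a median of 1968 UMIs in myeloid cells against 2385 in CONV.

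Counts of some of these genes are uncertain because reads cannot be placed with confidence. Every 98-base window of Hist1h2ap, Hist2h2aa1, Hist2h3c1 and Hist1h1e also occurs in another gene, 98 bases being the length of the read that carries the transcript, and 12 of the 49 measured genes share over 50% of their windows. How reads that match several genes were counted is not given in the sources used here.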

How the data were processed

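The deposited values were counts of UMIs per gene and barcode, not normalized, made by the authors with Cell Ranger 2.0 on mm10, per the submitters' processing notes. Totals were 7463259 UMIs over 2507 barcodes in CONV, 5498902 over 2394 in FLASH and 7114360 over 1761 in NI. Barcodes below 200 genes (50) or above 10% mitochondrial UMIs (154) were removed, and the top Scrublet scores at 0.8% per 1000 barcodes were taken out as doublets (121, where the automatic threshold marked 52). Leiden clustering (resolution 1, 15 neighbours) used 30 components of the 2000 most variable genes, histone genes left out and libraries not integrated. Clusters were named from markers of 32 types, at least 3 of them found in 10% of the cells and 2-fold higher than elsewhere. Classes were compared with at least 50 cells in each library.

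UMIs were summed over cells and divided by all UMIs of those cells (CPM), with exact Poisson intervals on sums, exact conditional binomial intervals on ratios and Clopper-Pearson intervals on shares, all at 95%. UMIs limit the precision, and intervals cover counting error only. The interval code was tested on simulated data. The histone genes, lists and tests were chosen with earlier results of these data known. Every measured histone gene could be named. In each comparison those with values were up to 3 highest and 3 lowest (6 in dividing against resting cells) by the bound nearest 1, past 1.5-fold, and the genes needed to describe each family. The immediate early list and the alternatives without the Itm2a-led cluster and without dividing cells were added after values were seen. Promoters are from RefSeq (GRCm38.p6), transcripts and positions from GENCODE M21, which placed 83 of the 85 genes. Python 3.11.15, numpy 2.4.6, scipy 1.17.1, pandas 2.3.3, scanpy 1.11.5, anndata 0.12.19, igraph 0.11.9, scikit-learn 1.9.0 and matplotlib 3.10.9 were used.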

Additional observations from a re-analysis of the deposited data

How the results depend on the processing

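Over 17 alternatives, 1053 values were recomputed for 99 results, and 908 kept their direction and moved within their counting interval, or within 1.5 times for counts. The causes of the changes were not tested unless the alternative itself shows them. No paired analysis was possible because each group is 1 library and the labels give no replicate numbers. A library could not be left out for the same reason. At Leiden resolution 0.5 there was no separate resting thymocyte-like cluster, so dividing against resting cells has no value there.

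Over all cells, the replication-linked ratio to NI became 0.348 in CONV and 0.399 in FLASH at a mitochondrial limit of 5%, 0.352 in CONV with equally weighted cells, and 0.350 in CONV and 0.405 in FLASH with thinned cells. The variant ratio became 0.477 and 0.509 at the 5% limit and 0.477 and 0.502 without mitochondrial and ribosomal protein UMIs. Without the thymocyte-like clusters the ratios were 0.768 and 0.905 for replication-linked genes and 0.754 and 0.797 for variant genes.

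In dividing against resting thymocyte-like cells, the replication-linked ratio became 0.658 at a mitochondrial limit of 20%, 0.665 with no doublet removal and 0.875 with equally weighted cells. The variant ratio became 1.34 at the 5% limit, 1.19 at 20% and 1.2 with no doublet removal. Thinning left 4 replication-linked genes at least 2-fold higher. The percentage of cells with a UMI of Hist1h2ap was 77.8 in dividing and 28.6 in resting cells unthinned, and that of Hist1h2bc in epithelial cells 47.6 in CONV, 47.7 in FLASH and 52.5 in NI.

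In dividing against other cells outside those clusters, the NI replication-linked ratio became 3.21 with no doublet removal and 1.67 at Leiden 0.5, the CONV one 1.30 thinned and the FLASH one 2.28 at Leiden 0.5. The variant ratio became 3.11 in CONV, 2.87 in FLASH and 2.05 in NI at Leiden 0.5, 2.80 in CONV and 3.15 in FLASH without mitochondrial and ribosomal UMIs, 2.46, 2.48 and 2.13 with equally weighted cells, and 2.34 in FLASH and 2.17 in NI thinned.

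Calls over the 5 compartments were 2 higher and 11 lower for CONV against NI, 3 and 12 for FLASH against NI, and 1 and 0 for FLASH against CONV. A fold of 1.5 gave 9 and 20, 9 and 22, and 8 and 2. At least 50 UMIs gave 1 and 6, 1 and 5, and 0 higher. Thinning gave 0 higher for CONV and 0 higher and 6 lower for FLASH against NI, and 3 higher for FLASH against CONV. The 5% limit gave 1 higher for CONV, 6 lower for FLASH and 1 lower for FLASH against CONV. Leiden 0.5 gave 18 lower for CONV and 20 for FLASH, and 0 higher for FLASH against CONV, as did histone genes among the clustering genes and CPM without mitochondrial and ribosomal UMIs. At least 500 genes and equally weighted cells gave 1 lower for FLASH against CONV. Leaving out the Itm2a-led cluster or the dividing cells left 1 higher for CONV.

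Of 798 values of single genes, 723 kept, 64 moved and 11 reversed. In lymphoid cells Hist1h2ap in CONV became 0.623 with no doublet removal, 0.440 at Leiden 0.5, 0.805 with histone genes among the clustering genes and 0.968 without the Itm2a-led cluster. H2afz in CONV became 0.945, 0.906, 0.969 and 0.877 in the same order. In FLASH at Leiden 0.5 they became 0.732 and 0.967. Hist2h2be in CONV epithelial cells became 1.01 thinned. With a pseudocount of 10 CPM in place of 1, the median log2 ratio of the mitotic list became 1.28 in CONV and 1.43 in FLASH lymphoid cells, and -0.73 and -1.32 in myeloid cells.

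Depth limits many replication-linked genes: 25 of 69 had 1 to 29 UMIs and 5 had none, and FLASH was the shallowest per cell. The interval of a ratio on 20 UMIs spans several fold, so a gene that was not called is not shown to be level. Animals, dissociation and loading cannot be told apart from the groups.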
